A study of Mus musculus with 9 samples.

Results

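The Lce1 genes encode late cornified envelope proteins, small proteins that keratinocytes of the uppermost granular layer make last and cross-link beneath the plasma membrane. They were measured here in trunk epidermis of newborn mice labelled knockout for Alox12b, the 12R-lipoxygenase of the epidermal lipid barrier, and of mice labelled wildtype. Probe sets were taken if the platform annotation gave them exactly 1 gene symbol beginning with Lce1, which gave 13 probe sets of 11 genes among 45037 probe sets. At most 10 genes were to be kept, so the 10 kept genes were chosen by their mean log2 value over all 9 arrays, and their levels are given as a description. They were Lce1a1, Lce1a2, Lce1b, Lce1c, Lce1d, Lce1f, Lce1h, Lce1i, Lce1l and Lce1m, 10 of the 18193 genes tested. The kept gene nearest the limit was Lce1l, with a mean of 7.26, and the gene left out was Lce1g, with a mean of 6.28. The rule did not use the knockout and wildtype difference.

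The series held 4 arrays labelled knockout and 5 labelled wildtype. The labels call them biological replicates and do not say whether each is 1 animal or a pool. Knockout newborns carry the Alox12b-KO genotype and wildtype newborns are given as strain 129S6; parents were heterozygous Alox12b knockouts, and the labels name no deleted exon, no strain for the knockouts and no sex. All newborns were killed right after birth, and the epidermis was lifted off mechanically after a short bath in hot saline. Total RNA was read on the U430 2.0 mouse array of Affymetrix, where a probe set covers mostly the 3′ end of a transcript.

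Late cornified envelope proteins are substrates of transglutaminases, the enzymes that join envelope proteins into an insoluble shell. Loricrin, filaggrin and involucrin are other components of that shell. The genes for most of them lie together in the epidermal differentiation complex, and the Lce genes form a block within it. Lce1 genes are known as members made in normal stratifying epidermis, while Lce3 genes and small proline-rich genes are known to be induced when skin is injured or inflamed.

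In RefSeq's GRCm38.p6 gene order, Lce1a1 to Lce1i lie as neighbours, with Lce1e and Lce1g among them. Lce1j, Lce1k and Kprp come next, Lce1l follows Kprp, and Lce1m lies apart, beyond the Lce3 genes and Crct1. Lce1e, Lce1j and Lce1k had no probe set of their own in the annotation used here, so 3 of the 14 Lce1 genes in that order were not analysed here. Promoter sequences from RefSeq (GRCm38.p6) were found for 9 of the 10 kept genes. The last 80 bases before each transcription start are shown because they hold the words that most Lce1 promoters have in common. The capitals mark the words TGTCTCAC and ATAAAAGG.
Lce1a1 (chr3:92648308-92648387, minus strand): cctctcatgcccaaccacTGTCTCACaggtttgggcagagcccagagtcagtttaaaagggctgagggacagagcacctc
Lce1b (chr3:92656927-92657006, minus strand): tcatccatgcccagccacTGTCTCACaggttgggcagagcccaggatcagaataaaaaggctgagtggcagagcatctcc
Lce1a2 (chr3:92670316-92670395, minus strand): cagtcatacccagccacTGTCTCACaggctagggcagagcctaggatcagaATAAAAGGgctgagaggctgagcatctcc
Lce1c (chr3:92679167-92679246, plus strand): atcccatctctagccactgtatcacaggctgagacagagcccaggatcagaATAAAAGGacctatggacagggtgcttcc
Lce1d (chr3:92687211-92687290, minus strand): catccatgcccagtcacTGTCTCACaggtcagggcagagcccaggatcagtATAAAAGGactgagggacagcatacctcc
Lce1h (chr3:92765066-92765145, minus strand): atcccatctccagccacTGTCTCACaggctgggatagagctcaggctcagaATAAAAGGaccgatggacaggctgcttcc
Lce1i (chr3:92778900-92778979, minus strand): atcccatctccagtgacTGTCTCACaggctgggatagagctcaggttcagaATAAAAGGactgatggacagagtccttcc
Lce1l (chr3:92851287-92851366, minus strand): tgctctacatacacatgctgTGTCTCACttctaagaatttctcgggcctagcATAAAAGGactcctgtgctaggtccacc
Lce1m (chr3:93019062-93019141, minus strand): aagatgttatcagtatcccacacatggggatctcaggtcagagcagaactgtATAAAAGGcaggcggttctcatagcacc

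Those words were picked as the 8-base words held by the most Lce1 promoters, leaving out words that overlap a word already picked. Among words held equally often, the one rarer in all RefSeq promoters was taken. Their frequencies among Lce1 genes and among all promoters are therefore both a description. With both strands of the 250 bases before the start searched, TGTCTCAC was in 7 of these 9 promoters and in 1.12% of all 32851 RefSeq promoters. ATAAAAGG, which overlaps the TATA box word TATAAA in Lce1d and Lce1m, was likewise in 7 of 9 and in 1.54% of all. TGTCTCAC began 62 or 63 bases before the start in Lce1a1, Lce1a2, Lce1b, Lce1d, Lce1h and Lce1i and 60 bases before it in Lce1l. In Lce1c that stretch differs, and in Lce1m the word is not in the window. The AP-1 word TGANTCA was in 0 of the 9 promoters and in 6.75% of all, and the KLF word CACCC was in 3 of 9 and in 52% of all. After alignment with gaps, the 80 bases of the 7 genes other than Lce1l and Lce1m were 70.0% to 91.2% identical in 21 pairs, highest between Lce1h and Lce1i. The 15 pairs with Lce1l or Lce1m were 56.2% to 66.2% identical. A shared word in these windows is a match of letters and not a measured binding site.

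The targeted gene did not check the labels: Alox12b read 11.13 ± 0.33 (SD, n = 4) on knockout arrays and 10.91 ± 0.29 (SD, n = 5) on wildtype arrays, and the deleted part of the gene is not given. Xist, expressed from the inactive X of females, lay at 9.99 to 10.20 in knockout samples, at 10.95 in wildtype sample 4 and at 3.23 to 4.32 in the remaining wildtype samples. Genotype and sex therefore overlap almost fully. Of the markers of the labelled tissue, Krt10, a suprabasal keratin, read 14.05 to 14.30 and Lor, the loricrin gene, 14.22 to 14.46 on every array. Krt2, another suprabasal keratin, read 8.75 on knockout array 1, 7.81 on wildtype array 2 and 3.39 to 4.62 on the other arrays. Wildtype array 5 stood apart from the other wildtype arrays for Lce1 genes, and results are given with and without it.

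All 10 Lce1 genes were lower on average in the knockout samples, and none passed the test. Knockout means were between 59.8% of the wildtype level for Lce1h and 89.5% for Lce1f on the linear scale. The median of the 10 log2 differences, knockout minus wildtype, was -0.55, against 0.02 over all genes tested. A difference below 0 was seen for 46.5% of all genes, and one at or below -0.55 for 6.69%. In limma 0 of the 10 passed an adjusted p of 0.05, where 1.24% of all genes passed and 0.731% passed as lower, and 5 of the 10 had an unadjusted p under 0.05 where 10.7% of all genes were lower at that level. The limma adjusted p ran from 0.159 to 0.746. The samples of the groups overlapped for all 10 genes, while 5.14% of all genes were lower in knockout without overlap.

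**Figure D1:**
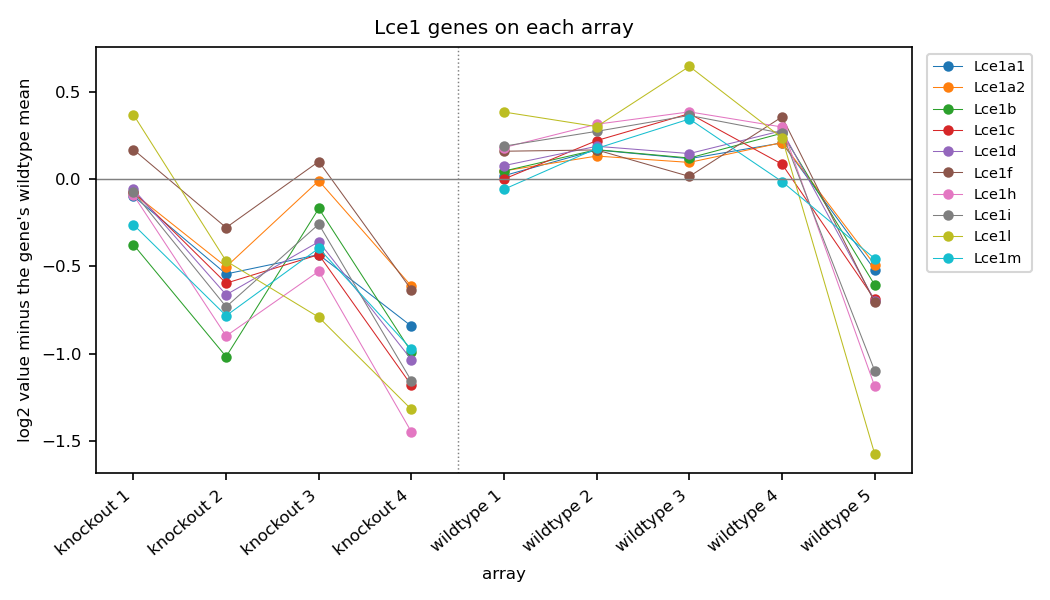
Log2 value of each of the 10 Lce1 genes on each of the 9 arrays, minus that gene's wildtype mean; the thin lines only join the points of a gene. Wildtype arrays 1 to 4 lie close together, while wildtype array 5 lies within or below the knockout arrays, of which array 4 is mostly the lowest.

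Lce1m had the smallest p of the 10. It read 12.52, 11.99, 12.38 and 11.80 on knockout arrays 1 to 4 and 12.72, 12.95, 13.12, 12.76 and 12.32 on wildtype arrays 1 to 5. Every knockout array was below wildtype arrays 1 to 4, and only knockout arrays 1 and 3 were above wildtype array 5. The means were 12.17 ± 0.33 (SD, n = 4) and 12.78 ± 0.30 (SD, n = 5), a log2 difference of -0.60 with an SE of 0.19 and a limma adjusted p of 0.159. The knockout level was 65.8% of wildtype, with a 95% interval from 49.1% to 88.3% that is not adjusted for the number of genes. This gene lies farthest from the rest of the family in the complex.

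Lce1h had the largest difference. Its knockout arrays read 12.63, 11.82, 12.19 and 11.27, and its wildtype arrays read 12.90, 13.03, 13.11, 13.02 and 11.53. Wildtype arrays 1 to 4 fell within a narrow band, and array 5 was below all knockout values but that of array 4. The log2 difference was -0.74 with an SE of 0.35 and a limma adjusted p of 0.301. Wildtype array 5 minus the mean of the other wildtype arrays was -1.48, which is larger in size than the difference between the groups. Lce1i, whose promoter is the most like that of Lce1h, read between 12.10 and 13.18 on knockout arrays, and 13.45, 13.53, 13.62, 13.52 and 12.16 on wildtype arrays. It had the same order of arrays at the low end, with knockout array 4 lowest and wildtype array 5 next, and a log2 difference of -0.55 with an SE of 0.32 and a limma adjusted p of 0.385.

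Lce1b read 11.99, 11.35, 12.20 and 11.38 on knockout arrays and 12.41, 12.54, 12.49, 12.63 and 11.76 on wildtype arrays. Here the 2 lowest arrays were knockout arrays 2 and 4, and wildtype array 5 came next. The log2 difference was -0.64 with an SE of 0.23 and a limma adjusted p of 0.195, and the knockout level was 64.3% of wildtype, with an interval from 45.4% to 91.0%. Lce1a1, Lce1c and Lce1d, which lie near Lce1b, had log2 differences of -0.48, -0.57 and -0.53 with limma adjusted p values of 0.224, 0.269 and 0.277. Their knockout values ran from 12.00 to 12.74, from 11.67 to 12.78 and from 11.68 to 12.66. Their wildtype values ran from 12.32 to 13.05, from 12.17 to 13.23 and from 12.02 to 12.99. In each of these 3 genes knockout array 4 was the lowest of the 9 arrays. Lce1a1 had another probe set, which differed by -0.61 with a limma adjusted p of 0.198 when every probe set was fitted on its own.

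Lce1f and Lce1a2 showed the smallest differences. Lce1f read 13.15, 12.70, 13.08 and 12.34 on knockout arrays and 13.14, 13.15, 12.99, 13.34 and 12.27 on wildtype arrays. The lowest array was wildtype array 5, and knockout arrays 1 and 3 lay among the wildtype arrays. The log2 difference was -0.16 with an SE of 0.23 and a limma adjusted p of 0.746. The interval of the knockout level ran from 62.8% to 128% of wildtype. It holds no difference and also the level of each other kept gene except Lce1h, at 59.8%. Its dimmer probe set read 9.23 ± 1.04 (SD, n = 4) on knockout arrays and 9.22 ± 0.90 (SD, n = 5) on wildtype arrays, a log2 difference of 0.00. Lce1a2 read between 12.70 and 13.31 on knockout arrays and between 12.82 and 13.53 on wildtype arrays, with a log2 difference of -0.30, an SE of 0.18 and a limma adjusted p of 0.405.

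Lce1l varied most between arrays among the 10. It read 7.88, 7.04, 6.72 and 6.19 on knockout arrays and 7.90, 7.81, 8.16, 7.75 and 5.93 on wildtype arrays. Knockout array 1 reached the wildtype band, and wildtype array 5 was the lowest of all. The means were 6.96 ± 0.71 (SD, n = 4) and 7.51 ± 0.89 (SD, n = 5), a log2 difference of -0.55 with an SE of 0.45 and a limma adjusted p of 0.538. Lce1g, not kept, had the same lowest array, with 4.29 on wildtype array 5, and a log2 difference of -0.52 with an SE of 0.62. The highest value in the whole table was 14.46, and 9 of the 10 genes had means above 12; whether signals this high are compressed was not tested.

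**Figure D2:**
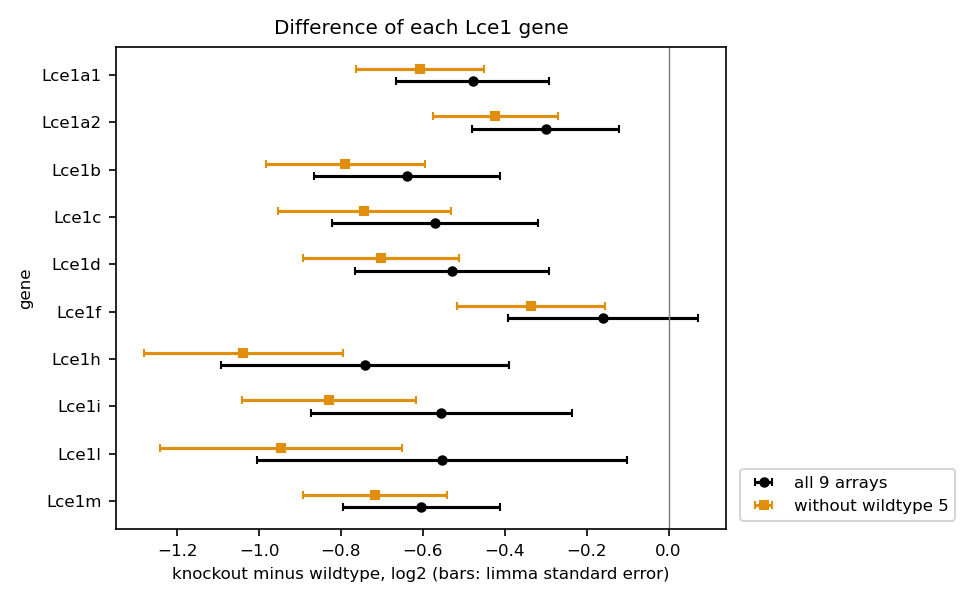
Knockout minus wildtype difference (log2) of each of the 10 Lce1 genes with its limma standard error, for all 9 arrays (circles) and without wildtype array 5 (squares). All values lie below 0, and without that array they range from -0.34 for Lce1f to -1.04 for Lce1h.

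The Lce1 genes moved together from array to array. The mean of the 10 log2 values was 12.28, 11.69, 12.01 and 11.31 on knockout arrays 1 to 4, and 12.44, 12.55, 12.60, 12.55 and 11.53 on wildtype arrays 1 to 5. Knockout array 1 was thus close to the wildtype arrays and knockout array 4 was below wildtype array 5. Knockout array 4 was the lowest knockout array for 9 of the 10 genes, and knockout array 1 was the highest for 8. Wildtype array 5 was the lowest wildtype array for all 10. Pearson's r between members over the 9 arrays ran from 0.70, between Lce1f and Lce1m, to 0.99, between Lce1h and Lce1i, with a median of 0.92 over 45 pairs. With group means taken out the median was 0.93. These points share their arrays, and 5 of the 10 genes were read by probe sets of the _x_at or _s_at kind, whose probes can also match related transcripts. Reads of such close relatives are uncertain as values of a single gene.

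Without wildtype array 5 the differences of all 10 Lce1 genes were larger in size, and 0 passed. This array was singled out for its Lce1 values, which were the lowest of the wildtype arrays for all 10 genes. Leaving it out had to raise each wildtype mean, so the values without it are a description. The shares of all genes given beside them had no array chosen by those genes' own values. The 4 other wildtype arrays had SDs of 0.07 to 0.19 across the 10 genes, while the SDs of the knockout arrays were 0.30 to 0.71. All 4 knockout arrays were then below all 4 wildtype arrays for 8 of the 10 genes, the exceptions being Lce1f and Lce1l; this was so for 6.24% of all genes. The median difference was -0.73, against -0.36 when knockout array 4 was left out instead, and 9 of the 10 had an unadjusted p under 0.05, as did 9.49% of all genes in that direction. The limma adjusted p values ran from 0.0700 for Lce1h to 0.405 for Lce1f, and 0.945% of all genes passed as lower. When arrays were instead weighted by their residual spread, 8 of the 10 passed as lower, where 5.12% of all genes passed as lower. Their limma adjusted p values went down to 0.00679 for Lce1b. Wildtype array 5 had a weight of 0.36, knockout array 3 one of 0.32 and knockout array 4 one of 0.31. Knockout array 2 had the highest weight, 3.37, and knockout array 1 had 1.42. The knockout side of that fit thus rested mainly on knockout array 2. The members that did not pass were Lce1f and Lce1l.

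Wildtype array 4, the wildtype array with high Xist, had Lce1 values like those of wildtype arrays 1 to 3. It was above every knockout array for 9 of the 10 genes, the exception being Lce1l. Against this array alone the median difference of the 10 genes was -0.74, a value without a test, since the wildtype side was 1 array. With the Xist level as a covariate the median was -0.78 and 0 of the 10 passed. Both values rest on wildtype array 4 for the comparison at high Xist.

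Lists of markers of other cells were read on the same arrays, and some of them moved with the Lce1 genes. In bulk tissue, fewer cells of a type and less RNA per cell cannot be told apart. The 6 Langerhans cell and leukocyte markers were lowest on the same arrays as the Lce1 mean, with 4.75 on wildtype array 5 and 5.43 on knockout array 4, against up to 6.97 elsewhere. Their r with the Lce1 mean over the 9 arrays was 0.75, the highest of the 18 lists, and their median difference was -0.25. The 5 skeletal muscle markers were lowest on those arrays too, with 4.15 and 4.60 against up to 7.17, an r of 0.52 and a median difference of -0.08.

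Basal keratinocyte markers were, as a median, lower in knockout by about as much as the Lce1 genes, but single markers ranged from -1.19 to 0.09. Their median difference was -0.54, with 7 of 9 below 0, means of 6.06 to 6.47 in knockout and 6.38 to 7.34 in wildtype, and an r of 0.61 with the Lce1 mean. Of the the 15 hair follicle markers 12 were below 0, with a median of -0.33 and means of 4.21 to 5.03 in knockout and 4.72 to 5.34 in wildtype. All 4 adipocyte markers measured were below 0, with a median of -1.96 and means of 4.52 to 5.76 in knockout and 4.25 to 9.55 in wildtype. None of the markers of other cells, in any of these lists, passed the test as single genes.

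Other marker lists set the low Lce1 arrays apart from each other. On knockout array 4 the mean of 8 fibroblast markers was 8.71 and that of 6 smooth muscle markers 6.16, the highest of the 9 arrays in each list. On wildtype array 5 the fibroblast mean was 5.33, the lowest. The fibroblast range was 5.69 to 8.71 in knockout and 5.33 to 7.36 in wildtype, with a median difference of 0.38. The smooth muscle range was 3.51 to 6.16 in knockout and 3.32 to 3.76 in wildtype, with a median difference of 0.79. Knockout arrays 1 to 3 read 3.51, 3.60 and 3.72, within the wildtype range, so only knockout array 4 stood above it. Wildtype array 5 was also lowest for 6 melanocyte markers, at 3.35 against 4.51 to 5.32 on the other arrays, with a median difference of 0.44.

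The 6 immediate early genes, which cells induce quickly after many stimuli, all rose, by 1.37 for Fos to 3.09 for Nr4a1, where 0.511% of all genes were called higher. Their means were 9.61 to 9.89 in knockout and 6.75 to 7.56 in wildtype, lowest on wildtype array 5. The log2 scale has no 0, and the lowest value in the table was 1.43. The part of all these lists in the Lce1 values was not tested.

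**Figure D3:**
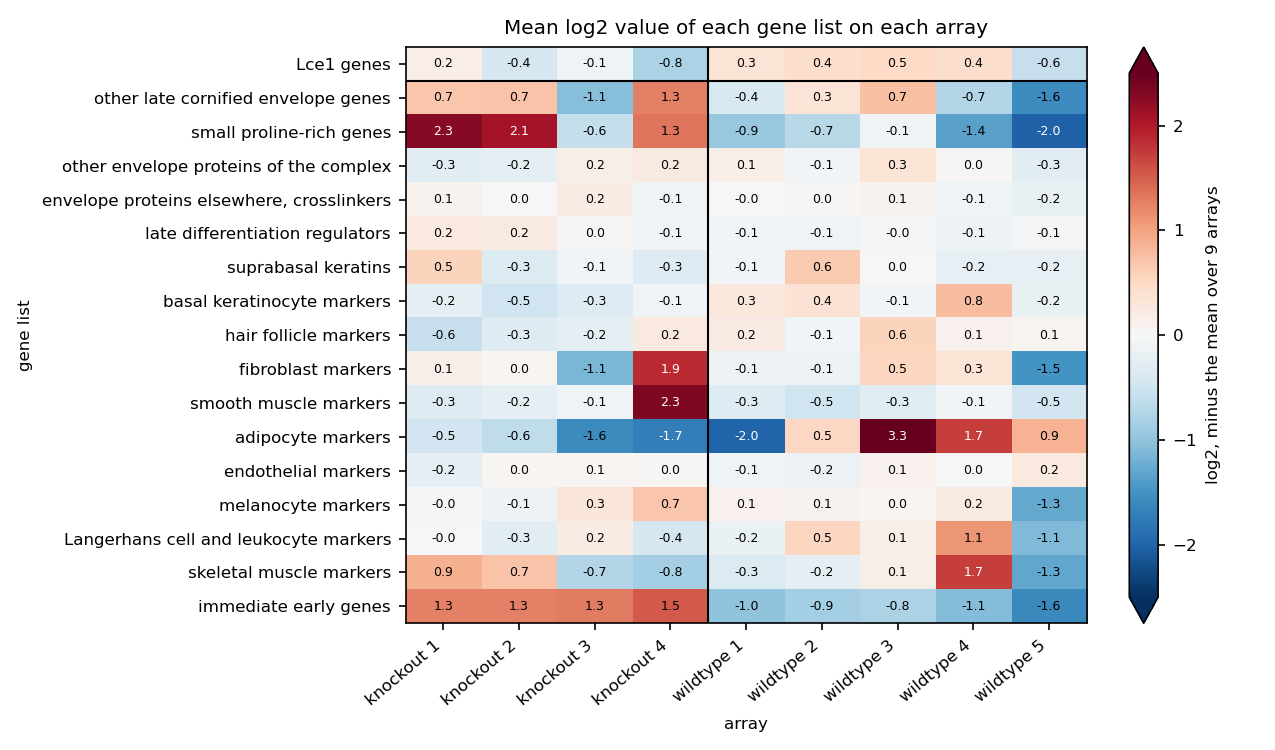
Mean log2 value of the 10 Lce1 genes and of each other gene list on each array, minus the mean of that row over the 9 arrays; red is higher and blue lower. The Lce1 row is lowest on knockout array 4 and wildtype array 5, whereas the small proline-rich row is high on knockout arrays 1, 2 and 4.

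Other envelope genes did not follow the Lce1 genes as a group. Of 4 other late cornified envelope genes measured, all of the Lce3 kind, 1 rose, and their median difference was 0.57. This was Lce3c, which read 11.71 ± 0.10 (SD, n = 4) against 9.61 ± 0.73 (SD, n = 5), a log2 difference of 2.10 (limma adjusted p of 0.0122). Of 9 small proline-rich genes 3 rose, against 0.511% of all genes called higher, with a list median of 2.27. They were Sprr2h, by 2.27, Sprr2d, by 2.26, and Sprr2k, by 0.81. These genes were higher on knockout arrays 1 and 2 than on array 3, with list means of 9.98, 9.80 and 7.12, an order that the Lce1 mean did not share. Whether the Lce1 differences are unlike those of these lists was not tested as a difference.

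A list of 10 genes of the complex, mostly of other envelope proteins, had a median difference of -0.01, with 5 below 0, and 0 passed. It holds the dim genes Lelp1 and Smcp, with group means of 2.16 to 2.66 and differences of 0.17 and 0.25. Smcp is not a gene of an envelope protein. The median without these genes was not computed. Rptn, the repetin gene, read 10.70 ± 0.24 (SD, n = 4) against 9.30 ± 0.67 (SD, n = 5), and Prr9 read 8.13 ± 1.16 (SD, n = 4) against 9.51 ± 0.56 (SD, n = 5). Lor read 14.36 ± 0.07 (SD, n = 4) against 14.33 ± 0.09 (SD, n = 5), so its samples overlapped. Its value on knockout array 3 was the highest of the whole table, 14.46, and whether signals this high are compressed was not tested. Of 14 envelope proteins from other loci and crosslinking enzymes 0 passed, with a median of 0.02. Cdsn, the corneodesmosin gene, read 12.36 ± 0.37 (SD, n = 4) against 11.85 ± 0.07 (SD, n = 5), and Tgm1, the main transglutaminase of the envelope, 9.68 ± 0.30 (SD, n = 4) against 9.18 ± 0.30 (SD, n = 5). Among 22 genes listed as regulators of late differentiation 1 rose, where 0.511% of all genes were called higher. This was Cebpb, by 0.65 with a limma adjusted p of 0.0458. The list median was 0.09, with differences from -1.42 for Trp63 to 2.88 for Fosl1, neither of which passed. Trp63, the p63 gene, is better known as a regulator of basal keratinocytes. None of the 6 suprabasal keratins passed, and their median was -0.02, with Krt77 at 7.37 ± 0.31 (SD, n = 4) against 8.53 ± 0.62 (SD, n = 5) and Krt78 at 12.20 ± 0.34 (SD, n = 4) against 11.70 ± 0.15 (SD, n = 5).

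**Figure D4:**
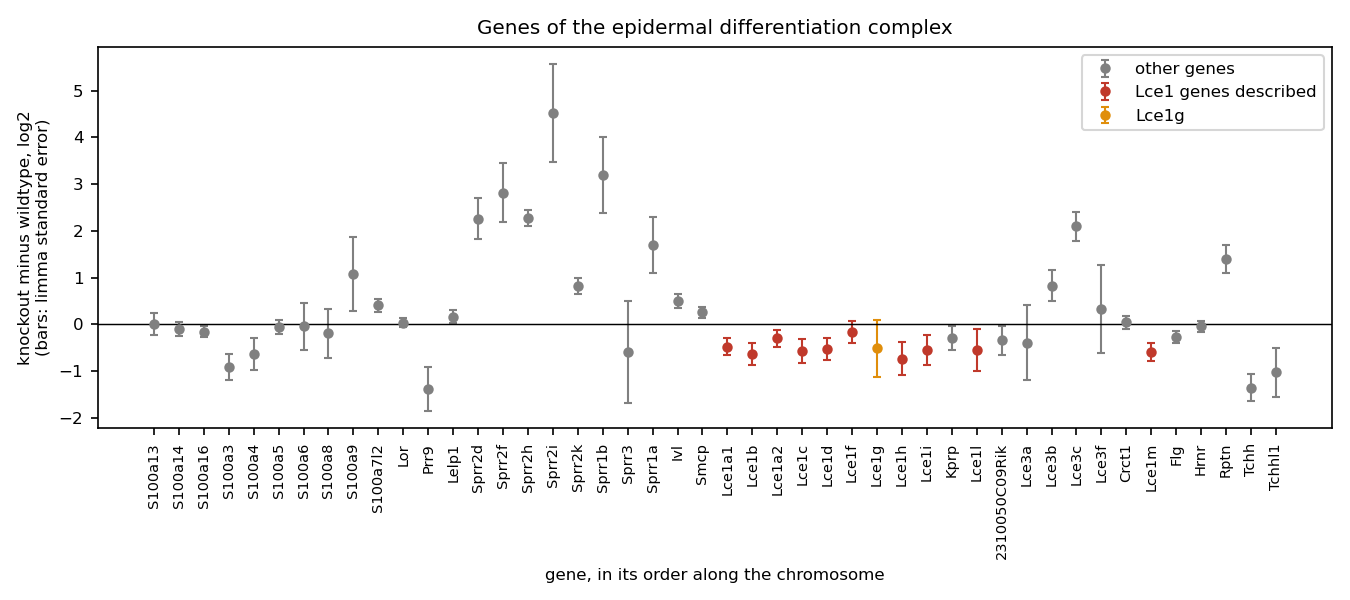
Knockout minus wildtype difference (log2, with limma standard errors) of the 46 genes tested in the epidermal differentiation complex, in their order along the chromosome. The Lce1 genes lie between -0.74 and -0.16, the small proline-rich genes to their left reach 4.52 for Sprr2i, which did not pass, and Lce3c to their right stands at 2.10.

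Along the complex 46 genes were tested, of which 4 were called higher and 0 lower, against 0.511% and 0.731% of all genes. Of the 35 that are not Lce1 genes 16 had a difference below 0. Kprp, a keratinocyte proline-rich protein gene between Lce1i and Lce1l among the genes measured, read 11.51, 11.05, 11.60 and 10.58 on knockout arrays and 11.49, 11.72, 11.76, 11.67 and 10.76 on wildtype arrays. Knockout array 4 and wildtype array 5 were its lowest arrays, as for the Lce1 mean. Its log2 difference was -0.30 with an SE of 0.25 and a limma adjusted p of 0.559. Crct1, between Lce3f and Lce1m among the genes measured, differed by 0.04.

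The genes whose pattern over the 9 arrays was most like the mean of the 10 Lce1 genes were ranked by Pearson's r among 18182 other genes, as a description with no test. Txnrd1, the cytosolic thioredoxin reductase gene, had the highest r, at 0.99, with Spearman's rho at 0.95. It read 8.74, 7.91, 8.32 and 7.30 on knockout arrays and 9.21, 9.47, 9.31, 9.25 and 7.80 on wildtype arrays. Its order among the knockout arrays was that of the Lce1 mean, and wildtype array 5 again lay among them. Its log2 difference was -0.94 with an SE of 0.36 and a limma adjusted p of 0.223. Next came Tbc1d24 with an r of 0.97, Actn1, an actinin gene, Babam2 and Csnk1e, a casein kinase gene, each with 0.96, and Gramd1c with 0.95. Without knockout array 4 and wildtype array 5, the arrays farthest from the median of the Lce1 mean, r was 0.98 for Txnrd1, 0.94 for Tbc1d24, 0.92 for Actn1 and for Babam2, 0.88 for Csnk1e and 0.87 for Gramd1c.

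With group means taken out, Txnrd1 was again first, with an r of 0.99. Csnk1e followed with 0.97, then Birc5, the survivin gene of dividing cells, with 0.97, then 1500002F19Rik, Kprp and Tbc1d24, each with 0.96. Of these, 1500002F19Rik had an r of 0.38 over the arrays as they stand and of -0.55 without the 2 farthest arrays. All of these values share the same 9 arrays, and several of the genes are dim, with means between 3 and 5 for Tbc1d24, Babam2, Birc5 and 1500002F19Rik in each group.

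**Figure D5:**
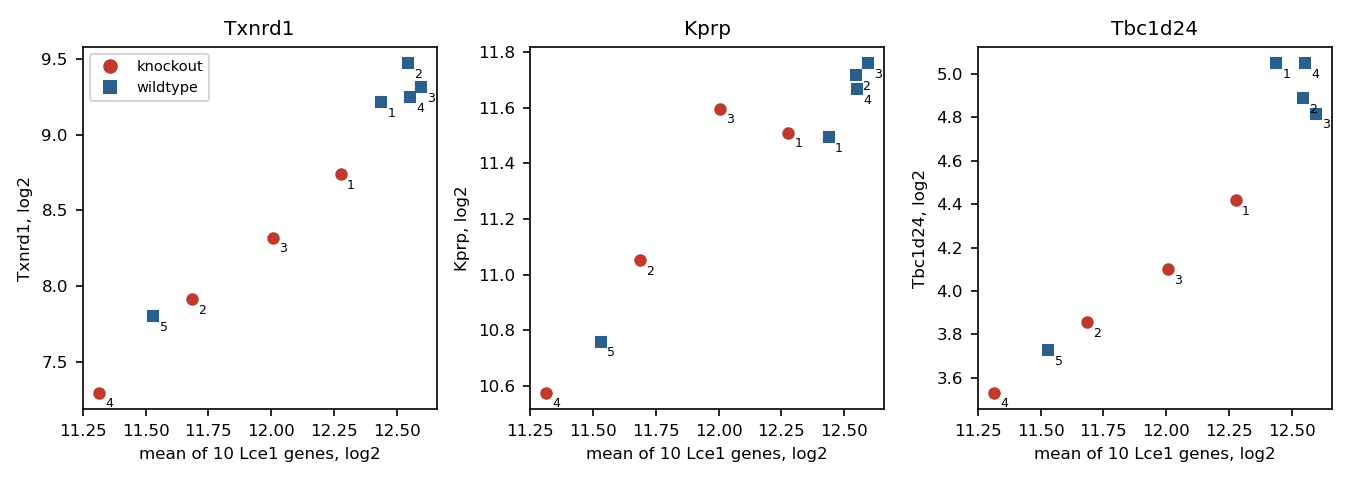
Log2 value of Txnrd1, Kprp and Tbc1d24 on each array against the mean log2 value of the 10 Lce1 genes, with the array number beside each point. In each panel knockout array 4, wildtype array 5 and knockout array 2 lie at the low end. Wildtype arrays 1 to 4 lie at the high end of the Lce1 mean, Txnrd1 and Tbc1d24, while for Kprp knockout arrays 1 and 3 lie above wildtype array 1.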

How the data were processed

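The authors deposited log2 values of 45037 probe sets for all 9 arrays. Per the submitters' processing notes, affy was used (no version); the steps for background, normalization and probe summary are not given in the labels read here. Values were used as deposited, and array medians ran from 3.14 to 3.31. Arrays have no read depth, and their number limits precision.

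Titles gave each sample's group and number. The members, gene lists and tests were chosen with earlier results of these data known. The platform annotation named 1 gene for 34945 probe sets, several for 932 and none for 9160, and 34741 matched the GRCm38.p6 gene table. The brightest probe set by mean stood for each of 18193 genes, and all 10 Lce1 genes were kept, with no filter on dim genes. Differences were tested over all genes by lmFit and eBayes of limma 3.58.1 (R 4.3.3), with genotype as the only term, with Benjamini-Hochberg adjustment and a threshold of 0.05; the code was tested on simulated data. Standard errors are limma's moderated ones. Named genes were all Lce1 genes, up to 3 called members of each other list or else its 2 largest differences, and the 6 genes most like the Lce1 mean by each of 2 measures. For lists of other cells only summary values are given. Lor, Krt10, Krt2, Crct1, Lce3a, Lce3b, Lce3f, Lelp1, Smcp, Sprr2i, Trp63, Fosl1, 2310050C09Rik and Fos were named outside that rule, after their values were seen. Alternatives were other probe set summaries, normalizations, eBayes settings, weights, covariates, a block, and each array left out; the fit of high-Xist arrays only was added after the data were seen. Promoter words were searched with Python.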

Additional observations from a re-analysis of the deposited data

Results flagged for a closer look

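Wildtype array 5 lay far below the other wildtype arrays for 7 of the 10 Lce1 genes, with a gap to the next array that took up more than 0.71 of the group's range. Its values were 12.32 for Lce1a1, 12.82 for Lce1a2, 11.76 for Lce1b, 12.02 for Lce1d, 11.53 for Lce1h, 12.16 for Lce1i and 5.93 for Lce1l. In total 20 groups of values were examined this way, and chance marks about 1 in 20; the 7 share a single array and probes of close relatives, so they are not separate events. No knockout array was marked for any of the 10 genes.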

How the results depend on the processing

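With 1 value per gene (its brightest probe set, or the mean of its probe sets), all 196 values of single Lce1 genes over 20 alternative fits were below 0; the dimmer Lce1f probe set, not among them, differed by 0.0011. Several of these fits, such as other eBayes settings or the filter on dim genes, leave the difference itself unchanged by design. All use the same arrays, so the 196 values are not separate checks. Of the 196, 8 passed, all with array weights. That fit gives wildtype array 5 and knockout arrays 3 and 4 less weight and knockout array 2 the most. It called 8 of the 10 genes lower and was the only alternative with a count other than 0. With each array left out in turn the median difference of the 10 genes ran from -0.73 without wildtype array 5 to -0.36 without knockout array 4, which moved it by more than 1.5 times, and 0 genes passed each time. The median was -0.45 with quantile normalization and -0.60 with each array centred on its median. No pairing by replicate number was seen in the deviations from the group means, which correlated at -0.21, -0.10, -0.21 and 0.18 for numbers 1 to 4. Whether the samples were paired was not tested. With the replicate block the median was -0.73 and 0 passed. Wildtype array 5 is the only array with its replicate number, so the block takes it out of the comparison. The differences were therefore those found without that array, and only their standard errors changed. Without _x_at, _s_at and _a_at probe sets 6 of the 10 genes could be tested, with a median of -0.56 and 0 passed. An adjusted p of 0.1 also gave 0. Over all genes 226 passed in the fit as reported, 1644 with array weights, 498 probe sets when each was fitted on its own, 119 with the replicate block, 9 with Xist as a covariate, 0 among high-Xist arrays only (where the wildtype side is 1 array, so that 0 says nothing about stability), and from 62 without knockout array 2 to 281 without wildtype array 5. The smallest Lce1 difference, that of Lce1f, came to -0.0012 without knockout array 4.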

Other observations

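The gene 2310050C09Rik, which lies between Lce1l and Lce3a among the genes measured, also varied with the Lce1 genes from array to array. It read 10.48, 9.50, 10.26 and 9.07 on knockout arrays and 10.18, 10.21, 10.72, 10.26 and 9.49 on wildtype arrays. Knockout array 4 was lowest, followed by wildtype array 5 and knockout array 2. Its r with the Lce1 mean was 0.91 over 9 arrays, rank 23 of 18182 other genes, and Kprp, on the other side of Lce1l, had rank 7. Neither differed past the threshold between the groups, with limma adjusted p values of 0.571 and 0.559. Lce3a, Lce3b, Lce3c and Lce3f, next in order, had an r between -0.25 and 0.12 with the Lce1 mean. Both genes were singled out after their values were seen, and the arrays are shared by all of these values.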
